A study of Mus musculus with 16 samples.

Results

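This section describes how far the effect of α-amanitin on the transcripts of mouse two-cell embryos depended on the strain of the maternal pronucleus. The quantity is an interaction: the change with amanitin in BCB embryos minus the change with amanitin in BBB embryos. It was taken over all 16 arrays of the series and for 45037 of the 45101 probe sets, leaving out the 64 control probe sets. Both kinds of embryo had a B6 paternal pronucleus and B6 ooplasm. The maternal pronucleus was B6 in BBB embryos and C3H in BCB embryos. Each kind was measured untreated and after α-amanitin (α-amantin in the labels), giving 4 groups of 4 arrays. The labels give no amanitin dose, no hours of exposure, no number of embryos per array and no sex. They do not say whether the 4 samples of a group came from separate collections, so p-values here measure the spread between these samples, which may be technical.

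α-Amanitin blocks RNA polymerase II, the enzyme that makes messenger RNA. The mouse embryo begins to transcribe its own genome in earnest at the two-cell stage, while messages stored in the egg are being broken down. A transcript made from the embryo's genome is therefore expected to be lower in embryos treated with the drug, and a stored message is expected to persist. Because the maternal pronucleus is the component that differs between the kinds, a strain difference seen in untreated embryos can be set beside the strain difference seen without new transcription. The interaction equals the second of these differences minus the first. Values below are array intensities on a linear scale, and differences are on the log2(intensity + 16) scale, which understates the change of dim probe sets. A negative interaction means that the amanitin effect was more negative in BCB embryos.

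The untreated arrays held two-cell embryo RNA by the markers examined. The summed intensity of 6 two-cell genes (Zfp352, Eif1a, Hspa1a, Pramel7, Dppa4 and Calcoco2) was 12413 to 13298 in untreated BBB and 12960 to 13998 in untreated BCB embryos. With amanitin it was 285 to 452 in BBB and 302 to 499 in BCB. Because these 6 genes fell with the drug, they cannot mark the stage of the treated arrays. The 6 oocyte-derived messages (Zp2, Zp3, Gdf9, Bmp15, Mos and Nlrp5) summed to 6157 to 7100 and 6394 to 7176 without the drug, and to 15788 to 15995 and 13452 to 14821 with it. Of 32 markers of cumulus and granulosa cells, the somatic cells around the egg, 28 were measured. They summed to 2535 to 3091 over the untreated and 954 to 1076 over the treated arrays, with 1 marker at a mean of at least 100 in each untreated group and 3 in each treated group. The 31 sperm and spermatid markers summed to 2028 to 2443 over the untreated arrays, 3611 to 4082 in treated BBB and 3186 to 3646 in treated BCB. The part of such cells in the results was not tested. Array means trimmed by 2% at each end were 150.001 on all arrays, and arrays of 1 group correlated at 0.978 to 0.991.

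The amanitin effect was large in both kinds of embryo. In limma, at a Benjamini-Hochberg adjusted p under 0.05, 21907 probe sets (48.6%) changed with amanitin in BBB and 22865 (50.8%) in BCB. Of these, 18635 were called in both kinds in the same direction and 19 (0.0422% of all) in opposite directions, 3253 were called in BBB alone, 4211 in BCB alone and 18919 in neither. The interaction passed the same threshold for 56 probe sets, or 0.124% of those tested: 43 lower (0.0955%) and 13 higher (0.0289%). At an unadjusted p under 0.05 there were 3527 (7.83%). The median interaction over all probe sets was 0.03, with the 5th and 95th percentiles at −0.39 and 0.50, and 177 probe sets lay at least 1 log2 unit from 0. The median standard error of a probe set's interaction was 0.22.

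**Figure D1:**
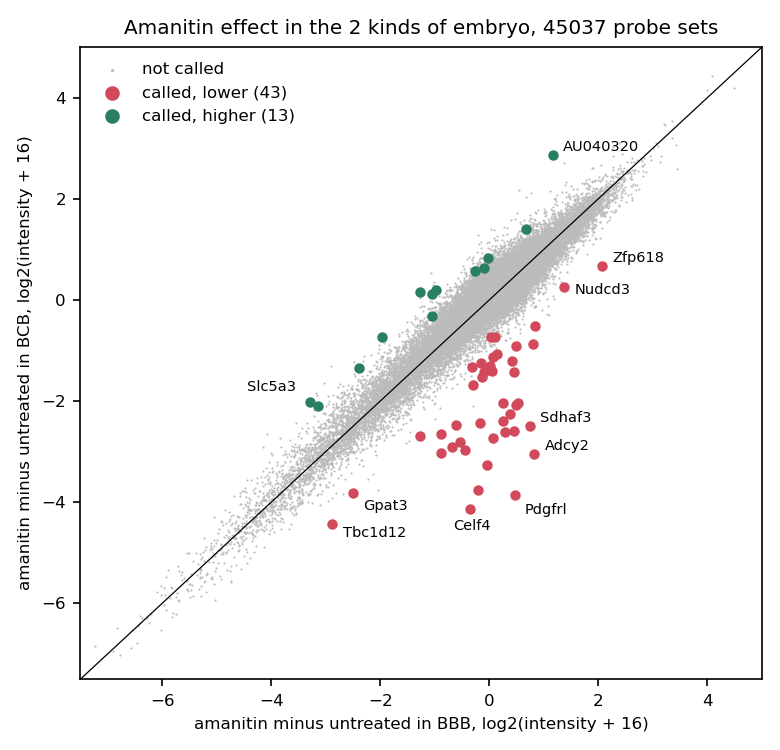
Change with amanitin in BBB (horizontal axis) and in BCB (vertical axis) for each of 45037 probe sets, as differences of group means of log2(intensity + 16). The line marks equal effects; the 43 probe sets called lower (red) lie below it, many near 0 on the BBB axis and between −4.44 and 0.67 on the BCB axis, and the 13 called higher (green) lie above it.

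Most of the 43 lower calls had 1 pattern: the transcript was higher in untreated BCB embryos than in the other 3 groups. All 43 were also called higher in untreated BCB than in untreated BBB (0.244% of all probe sets were called higher there, 0.373% in either direction). Between the kinds with amanitin, limma called 0 of 43 (0.0666% of all probe sets). These comparisons share arrays with the interaction and are given side by side. In 39 of the 43, all 4 untreated BCB arrays lay above the 12 other arrays, against 494 probe sets (1.1%) in all. The untreated groups were apart, with no overlap, in all 43 (5.37% of all probe sets), and the treated groups did not overlap in 7 (3.59% of all). The median over the 43 of the group means was 11.4 in untreated BBB, 124 in untreated BCB, 10.2 in treated BBB and 15.3 in treated BCB. Their interactions ran from −4.33 to −0.77, with a median of −1.77. Amanitin lowered 41 of them in BCB (22.1% of all probe sets) and raised 1 (28.6% of all), whereas in BBB it lowered 10 (23.3% of all) and raised 9 (25.3% of all). Each array read bulk RNA, so fewer cells with a transcript and less of it per cell cannot be told apart.

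Whether a transcript rose or fell with amanitin rests on the scaling, since the deposited arrays share 1 trimmed mean. Relative to that mean, the poly-A controls, bacterial transcripts added to the RNA before labelling, rose with amanitin from a mean log2 level of 7.85 to 9.57 in BBB and from 7.96 to 9.69 in BCB. Their interaction was 0.02. Scaling the arrays to them, chosen after seeing the data, moved the median amanitin effect over all probe sets from 0.06 to −1.66 in BBB and from 0.10 to −1.63 in BCB. On that scale 41 of the 43 were called lower in BBB and all 43 in BCB, and 0 were called higher in either kind by limma. Scaled to the hybridization controls, which are added after labelling, the medians were −0.49 and −0.69, and 26 of the 43 were called lower and 2 higher in BBB. Below, changes with amanitin are on the deposited scale, so "rose" and "fell" are relative to the trimmed mean of the array.

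**Figure D2:**
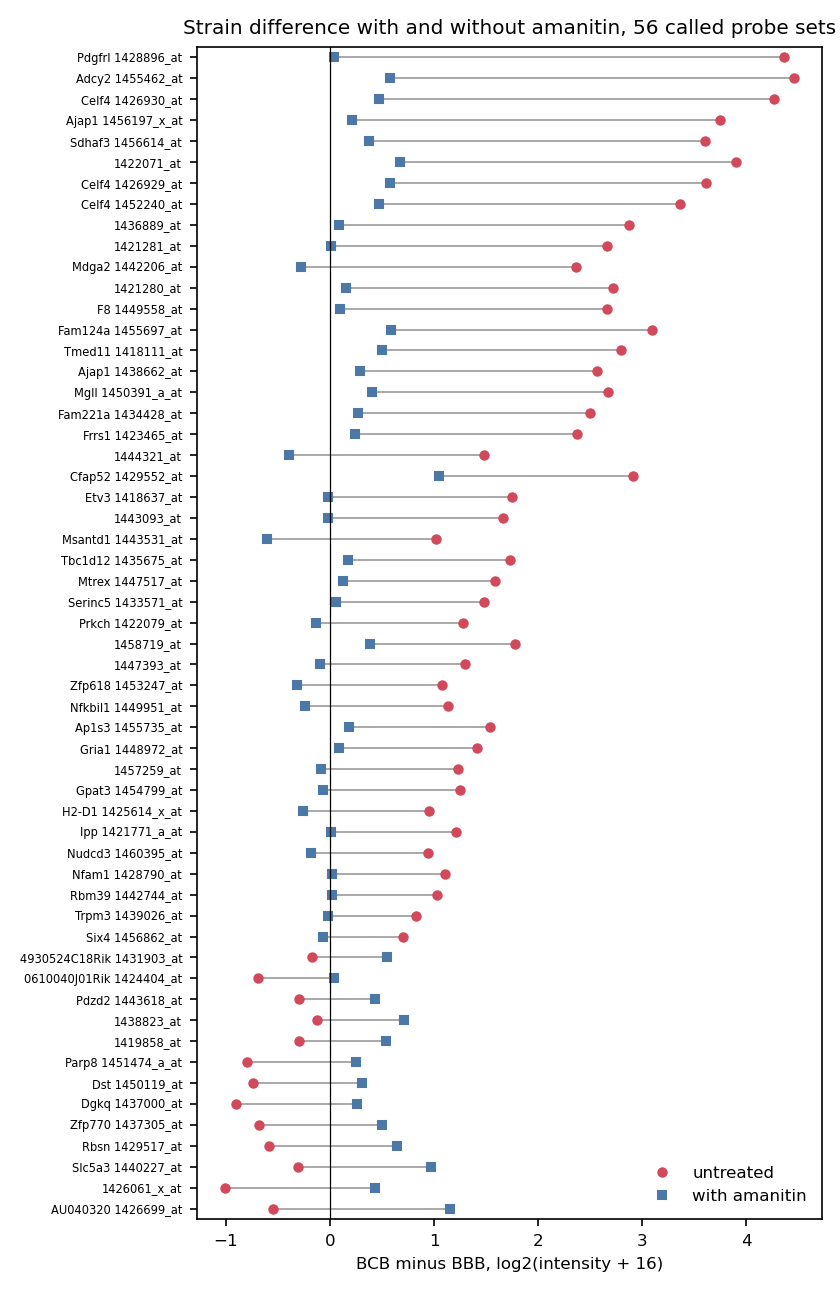
BCB minus BBB on the log2(intensity + 16) scale for each of the 56 called probe sets, untreated (red circles) and with amanitin (blue squares), ordered by the interaction, which is the distance from circle to square. For the 43 lower calls the untreated difference lies between 0.70 and 4.45 and the difference with amanitin between −0.60 and 1.04.

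Pdgfrl, whose product resembles the ligand-binding part of the platelet-derived growth factor receptors, had the largest interaction with the offset of 16. With an offset of 64 its value was −2.73, below in size Adcy2 (−2.97) and Celf4 1426930_at (−2.83), and with an offset of 1 it was −6.57. Its intensity was 6.6, 6.2, 0.4 and 2 in untreated BBB and 262.5, 487.2, 465.9 and 375.4 in untreated BCB. With amanitin it was 11, 11.8, 9.9 and 11.4 in BBB and 12.4, 10.9, 14.5 and 9.2 in BCB. The untreated BCB arrays stood far above all others, and the treated groups overlapped. The interaction was −4.33 ± 0.26 (SE, n = 4 per group; limma adjusted p = 1.55e-08).

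Adcy2 encodes an adenylyl cyclase, an enzyme that makes the messenger cyclic AMP. It read 17.5, 21.1, 17.5 and 26.1 in untreated BBB and 603.2, 916.6, 900.4 and 750.1 in untreated BCB. With amanitin it read 53.1, 50.5, 46.7 and 43.5 in BBB and 84.3, 88.1, 73.7 and 74.3 in BCB. All 4 groups were apart from one another: the drug was followed by a higher value in BBB, by 0.82 (limma adjusted p = 3.62e-05), and by a lower one in BCB, where the change was −3.06 (limma adjusted p = 2.89e-13). The interaction was −3.88 ± 0.19 (limma adjusted p = 1.63e-09). The difference that remained between the kinds with amanitin, 0.58, was not called (limma adjusted p = 0.130).

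Sdhaf3, an assembly factor of succinate dehydrogenase in the mitochondrion, moved in the same way. It read 24.9, 19.3, 17.5 and 27.3 in untreated BBB, 334.9, 533.1, 453.4 and 491.2 in untreated BCB, 44.7, 39.4, 47.8 and 59.2 in treated BBB and 71.7, 64.6, 71.7 and 58.3 in treated BCB. Untreated BCB was highest and untreated BBB lowest, and the treated groups overlapped between them. The interaction was −3.23 ± 0.21 (limma adjusted p = 5.67e-08).

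Amanitin effects called in opposite directions on the deposited scale were found for 7 of the 43 (0.0422% of all probe sets): Pdgfrl, Adcy2, Sdhaf3, Prkch, Ap1s3 and the probe sets 1444321_at and 1443093_at, which carry no single gene symbol in the platform annotation. In BBB their changes ran from 0.44 to 0.83 and in BCB from −3.86 to −0.52. The rises depended on the scaling: with the poly-A controls as the scale, each of the 7 was called lower in both kinds, from −1.27 to −0.88 in BBB, and scaled to the hybridization controls limma called 0 of the 7 in BBB (−0.10 to 0.28). The called probe set of Prkch, a protein kinase C, was 1422079_at. It read 0.7 to 2.2 in untreated BBB and 19 to 36 in untreated BCB, then 4.7 to 13.6 in treated BBB and 3.9 to 10.9 in treated BCB. Ap1s3, a subunit of the clathrin adaptor AP-1, read 12.7 to 16.2, 60.1 to 96.8, 29.9 to 42.9 and 26.7 to 60.8 in the same order, and it was called in 2 of the 16 fits that each left out 1 array. On these probe sets both genes were lowest in untreated BBB and highest in untreated BCB. The treated BCB range of Ap1s3 nevertheless reached into that of untreated BCB. The brighter Prkch probe set, 1434248_at, did not rise in BBB on the deposited scale: its change was −0.30 (limma adjusted p = 0.455).

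Celf4, an RNA-binding protein known from neurons, was the only gene with several probe sets of which all were called. Its probe set 1426930_at read 13.2, 9.8, 12.6 and 23.3 in untreated BBB and 496, 553.8, 602.7 and 624.1 in untreated BCB. With amanitin it read 8.4, 5.1, 6.5 and 11.5 in BBB and 18.3, 23.3, 13.8 and 13.4 in BCB. The untreated groups were wide apart, and the treated groups lay close together without overlapping. The difference between the kinds with amanitin, 0.47, was not called (limma adjusted p = 0.313). Its interaction was −3.79 ± 0.23 (limma adjusted p = 1.55e-08), and the interactions of the other probe sets, 1426929_at and 1452240_at, were −3.04 ± 0.34 and −2.89 ± 0.33.

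Ajap1, a transmembrane protein of adherens junctions, was called on 2 of its 3 probe sets. 1456197_x_at read 5.9, 9.8, 4.4 and 4.5 in untreated BBB, 180.7, 418.9, 304.4 and 264.3 in untreated BCB, 1.9, 6.4, 0.4 and 4 in treated BBB and 4.6, 12.2, 2 and 6.3 in treated BCB. Untreated BCB alone was raised. The interactions were −3.54 ± 0.30 (limma adjusted p = 2.26e-06) on that probe set and −2.27 ± 0.33 (limma adjusted p = 0.00340) on 1438662_at. The third, 1457427_at, read at most 8.1 on any array and gave −0.06.

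**Figure D3:**
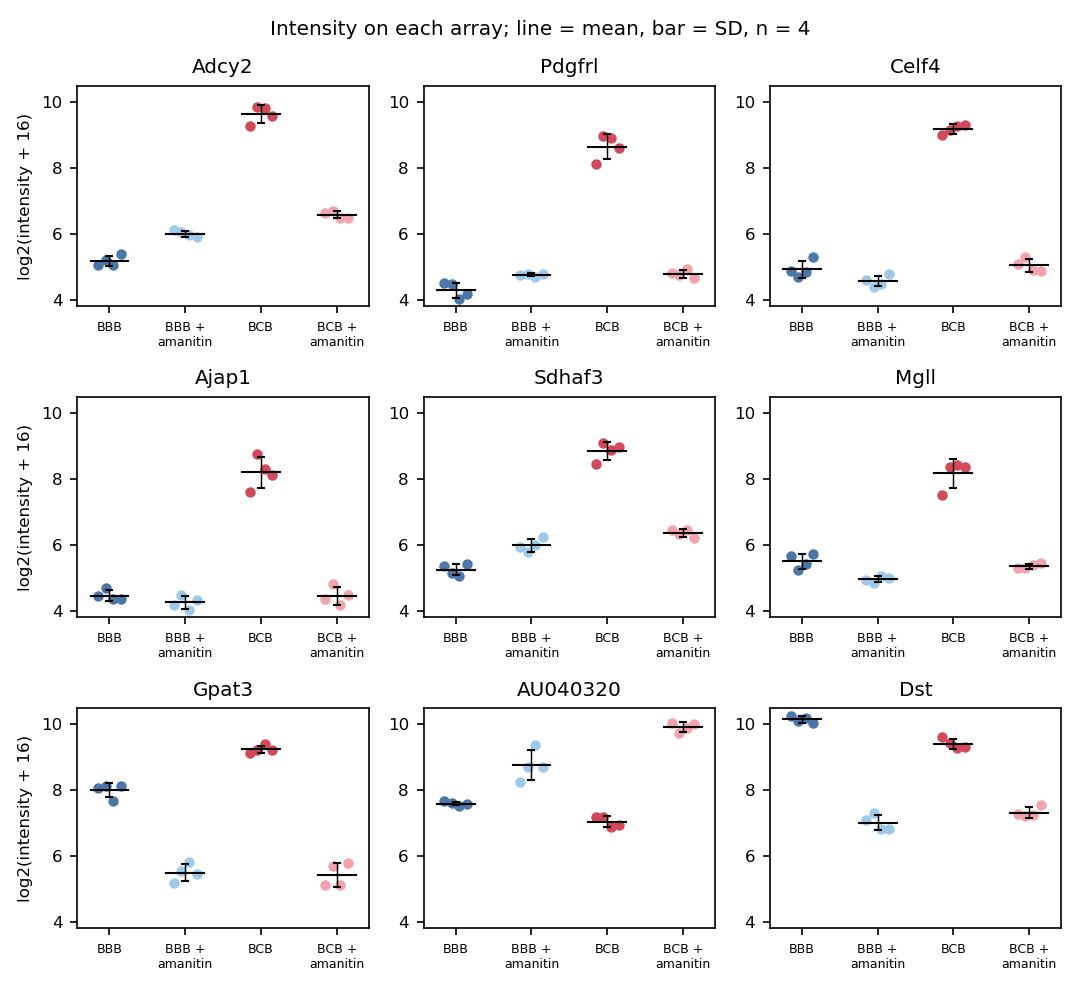
log2(intensity + 16) on each of the 16 arrays for 9 of the called genes (Celf4 1426930_at, Ajap1 1456197_x_at, Mgll 1450391_a_at, otherwise the probe set in the text); points are arrays, lines are group means and bars are SD over 4 arrays. Adcy2, Pdgfrl, Celf4, Ajap1, Sdhaf3 and Mgll are high in untreated BCB alone, Gpat3 is high in both untreated groups, AU040320 is highest in treated BCB, and Dst is highest in untreated BBB.

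The sequence just before the transcription start is shown for 4 genes that were bright in untreated BCB embryos, so that the upstream region of a strain-dependent transcript can be read. Sequences are from RefSeq (GRCm38.p6), 250 bases ending at the base before the start, 5′ to 3′ on the gene's strand. The reference is not C3H sequence, and C3H sequence was not used here. Capitals mark matches, on either strand, to the letters of 4 promoter motifs. The TATA box was searched as TATAAA. For the CCAAT box the letters were those of its name. The GC box was searched as GGGCGG. The E-box was searched as CACGTG. The windows are chr13:68999542-68999791 (minus strand) for Adcy2, chr6:6955768-6956017 (plus) for Sdhaf3, chr4:153482831-153483080 (minus) for Ajap1 and chr6:49367489-49367738 (plus) for Fam221a.
Adcy2: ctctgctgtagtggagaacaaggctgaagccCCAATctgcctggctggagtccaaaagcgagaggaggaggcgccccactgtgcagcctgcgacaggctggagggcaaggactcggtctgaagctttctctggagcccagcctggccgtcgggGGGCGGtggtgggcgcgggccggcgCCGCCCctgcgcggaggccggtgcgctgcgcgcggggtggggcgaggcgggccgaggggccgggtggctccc
Sdhaf3: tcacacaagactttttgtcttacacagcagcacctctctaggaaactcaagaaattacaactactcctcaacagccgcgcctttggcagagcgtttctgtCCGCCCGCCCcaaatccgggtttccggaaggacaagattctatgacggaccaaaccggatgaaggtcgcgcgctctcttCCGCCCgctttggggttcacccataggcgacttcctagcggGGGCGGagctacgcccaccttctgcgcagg
Ajap1: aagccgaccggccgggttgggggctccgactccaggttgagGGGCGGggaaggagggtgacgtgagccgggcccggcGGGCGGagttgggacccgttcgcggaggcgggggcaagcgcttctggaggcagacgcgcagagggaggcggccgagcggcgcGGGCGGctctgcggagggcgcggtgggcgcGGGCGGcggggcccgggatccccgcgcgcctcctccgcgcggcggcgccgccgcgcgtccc
Fam221a: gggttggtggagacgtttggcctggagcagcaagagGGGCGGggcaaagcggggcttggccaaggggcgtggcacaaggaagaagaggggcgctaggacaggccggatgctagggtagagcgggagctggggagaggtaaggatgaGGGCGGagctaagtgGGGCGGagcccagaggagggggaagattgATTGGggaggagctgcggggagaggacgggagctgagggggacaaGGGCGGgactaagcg

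None of these 4 windows held the TATA letters. Adcy2 had 1 CCAAT and 2 GC box matches, Sdhaf3 had 4 GC box matches, Ajap1 had 4, and Fam221a had 1 CCAAT and 4 GC box matches. Their GC content was 73.2%, 56.8%, 81.2% and 66.4%. Of the 31 genes called lower, 26 were in the RefSeq table, with 34 windows. The GC box letters were in 44.1% of these 34 windows and in 32.7% of all 32851 windows, the CCAAT letters in 20.6% and 33.8%, the E-box letters in 11.8% and 6.02%, and the TATA letters in 5.88% and 12.4%. The median GC content was 61.8% in the 34 and 52.4% in all. These shares were not tested, and a match is a description of the letters only.

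Mdga2, a membrane-anchored adhesion protein of neurons, read 0.8 to 7 in untreated BBB, 55.7 to 104.9 in untreated BCB, 1.1 to 26.9 in treated BBB and 1.7 to 10.4 in treated BCB, and its interaction was −2.64 ± 0.34 (limma adjusted p = 5.52e-04). F8, coagulation factor VIII, read 3 to 18.3, 93.4 to 219.7, 14.8 to 40.4 and 19 to 35.9 in the same order, with an interaction of −2.56 ± 0.36 (limma adjusted p = 0.00186). Tmed11, of the p24 family that carries cargo between endoplasmic reticulum and Golgi, read 4.6 to 8.4, 92.3 to 189.7, 8.6 to 14.5 and 20.2 to 26.4. For all of these the lowest untreated BCB array exceeded every array of the other groups. Gria1, a subunit of AMPA-type glutamate receptors, was dim throughout: 0.2 to 2 in untreated BBB, 24.7 to 34.2 in untreated BCB and 0.7 to 4.7 with amanitin over both kinds. Its interaction of −1.32 ± 0.14 still had a limma adjusted p of 3.95e-05, and its brightest group lay near the median intensity of an untreated array (20.3 in BBB).

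Mgll encodes monoacylglycerol lipase, which releases fatty acids from monoacylglycerol. Its probe set 1450391_a_at read 34.2, 21.4, 27 and 36.6 in untreated BBB, 166.5, 317.7, 330.7 and 315.2 in untreated BCB, 14.4, 12.8, 17.2 and 16.1 in treated BBB and 23.4, 23, 26 and 27.7 in treated BCB. The untreated groups were apart, and so, by a small margin, were the treated groups. The interaction was −2.27 ± 0.26 (limma adjusted p = 1.41e-04). A further probe set, 1426785_s_at, gave −1.31 ± 0.30 (limma adjusted p = 0.143), and on it the kinds differed with amanitin too, by 1.21 (limma adjusted p = 0.0407). Cfap52, a protein of cilia and flagella, resembled Mgll: 6.2 to 25.7 in untreated BBB, 157.4 to 254.2 in untreated BCB, 0.6 to 8.1 in treated BBB and 13.7 to 34.7 in treated BCB, with an interaction of −1.87 ± 0.31 (limma adjusted p = 0.0119). For Cfap52 the interaction was −1.15 (limma adjusted p = 0.764) with an offset of 1 and −1.41 (limma adjusted p = 1.73e-04) with an offset of 64.

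Gpat3, a glycerol-3-phosphate acyltransferase of triglyceride synthesis, and Tbc1d12, of a family that switches off Rab GTPases, differed from the preceding genes in that BBB embryos had a clear signal as well. Gpat3 read 250.1, 265.8, 188 and 265 in untreated BBB and 540.6, 584, 657 and 586.5 in untreated BCB, against 19.9 to 39.8 in treated BBB and 18.8 to 38.9 in treated BCB. Tbc1d12 read 88.3 to 180.2 and 367 to 600.7 without amanitin, and 0.8 to 7.6 and 3 to 11.1 with it. Amanitin lowered both transcripts in both kinds, to overlapping levels, by more on the log2 scale in BCB, where they had started higher. The interactions were −1.31 ± 0.24 for Gpat3 (limma adjusted p = 0.0328) and −1.56 ± 0.29 for Tbc1d12 (limma adjusted p = 0.0377). They were called in 6 and 5 of the 16 leave-one-out fits. These calls depended on the offset added to the intensities. With an offset of 1 limma called neither: Gpat3 gave −1.41 (limma adjusted p = 0.175) and Tbc1d12 −1.21 (limma adjusted p = 0.703). With an offset of 64 both were called, at −1.13 and −1.41. Frrs1, a ferric reductase, read 31.4 to 70.5, 208.5 to 374.4, 13.3 to 27.2 and 17.5 to 45.4 in untreated BBB, untreated BCB, treated BBB and treated BCB, with an interaction of −2.13 ± 0.32 (limma adjusted p = 0.00472). With an offset of 1 the Frrs1 interaction was −2.32 and was not called (limma adjusted p = 0.0564).

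Serinc5, a multipass membrane protein that limits the infectivity of retroviruses, read 25.3 to 40.1 in untreated BBB, 89.8 to 157.6 in untreated BCB and 0.6 to 9.5 with amanitin over both kinds, with an interaction of −1.42 ± 0.25 (limma adjusted p = 0.0261), called in 9 of 16 leave-one-out fits. With an offset of 1 the Serinc5 interaction was not called (limma adjusted p = 0.638). Ipp, a kelch-domain protein named for a transcript started in an intracisternal A particle, an endogenous retrovirus, had overlapping values in 3 groups on the deposited scale. It read 135.1, 147.7, 126.8 and 112.5 in untreated BBB, 150.2, 154.5, 103 and 146 in treated BBB, 149.2, 129.5, 154.7 and 121 in treated BCB, and 353, 314.1, 328.6 and 295.3 in untreated BCB. Only the last group stood apart, and the interaction was −1.20 ± 0.18 (limma adjusted p = 0.00427). The unnamed probe set 1457259_at had the same profile, at 91.6 to 117.1, 68.8 to 116.3, 65.9 to 102.4 and 226.3 to 310.4 in that order. The amanitin change of Ipp was 0.07 in BBB (limma adjusted p = 0.705) and −1.13 in BCB.

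Nudcd3, a co-chaperone linked to the motor protein dynein, and Zfp618, a zinc finger protein, reached the same call with a higher value after amanitin in BBB. Nudcd3 read 237.8, 271.5, 338.9 and 338.5 in untreated BBB and 816.2, 892.3, 629.7 and 812.5 in treated BBB, but 505.1, 563.9, 591.7 and 657 in untreated BCB and 626.8, 639.9, 817 and 677.7 in treated BCB. The treated groups overlapped, and the untreated groups did not. On the deposited scale it rose by 1.37 in BBB and its change in BCB was 0.24 (limma adjusted p = 0.124); scaled to the poly-A controls the changes were −0.35 (limma adjusted p = 0.0896) and −1.49. This gave an interaction of −1.12 ± 0.18 (limma adjusted p = 0.0104). The other, dimmer Nudcd3 probe set, 1442799_x_at, rose in both kinds on the deposited scale. Its changes were 1.48 in BBB (limma adjusted p = 2.23e-05) and 1.19 in BCB (limma adjusted p = 2.70e-04), with an interaction of −0.29 (limma adjusted p = 0.903). Zfp618 read 5.6 to 21.3 and 26.3 to 51.9 untreated, and 76.3 to 117.4 and 68.8 to 83.9 with amanitin. Its interaction of −1.39 ± 0.27 (limma adjusted p = 0.0465) was called in 3 of the 16 leave-one-out fits and was −0.36 (limma adjusted p = 0.654) for the mean of the gene's 4 probe sets.

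The remaining genes called lower were Fam124a (−2.51), Fam221a (−2.23), Etv3, an ETS-family repressor (−1.77), Msantd1 (−1.62), Mtrex, the helicase of the nuclear exosome (−1.47), Nfkbil1 (−1.38), H2-D1, a classical MHC class I gene (−1.21), Nfam1 (−1.09), the splicing factor Rbm39 (−1.02), the cation channel Trpm3 (−0.84) and the homeobox gene Six4 (−0.77). Of these genes, the calls of Etv3 and Msantd1 came back in 4 of the 16 leave-one-out fits, those of Nfkbil1 and Nfam1 in 3, that of Trpm3 in 5 and that of H2-D1 in 6. Fam124a read 5.2 to 15.8 in untreated BBB and 152.3 to 247.8 in untreated BCB. Another 9 lower calls have no single gene symbol. Of these, 1422071_at read 0.4 to 7 in untreated BBB, 170.2 to 357.3 in untreated BCB, 1.2 to 10.3 in treated BBB and 9.6 to 25.8 in treated BCB, and its interaction was −3.23 ± 0.32 (limma adjusted p = 2.55e-05). Of the 43, 37 had a mean below 50 in untreated BBB, and 26 had a mean of at least 100 in some group. The dimmest were Six4 and Trpm3, whose untreated BCB arrays read 9.2 to 14.7 and 12.1 to 16.7. These are below the median intensity of their arrays, so their calls rest on small amounts of signal.

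One untreated BCB array stood apart within the lower calls. Array 1 was the lowest of the 4 untreated BCB arrays for 35 of the 43 probe sets, and its intensity was in the median 0.705 times the mean of the other 3. The corresponding medians were 1.14, 1.09 and 1.12 for arrays 2, 3 and 4. Over the 12090 probe sets with a mean of at least 100 in untreated BCB, the median ratio of array 1 was 0.994 and it was the lowest in 26.2%. Pdgfrl, for instance, read 262.5 on array 1 and at least 375.4 on the others, and Ajap1 180.7 and at least 264.3. Without array 1 the fit made 65 calls, 49 lower and 16 higher, and 49 of the original 56 were among them. What part the array had in these results beyond that was not tested.

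**Figure D4:**
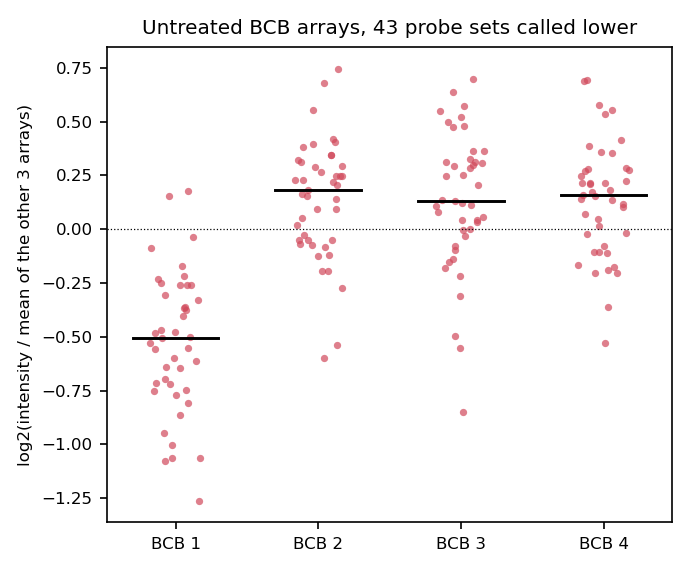
Intensity of each of the 43 lower-called probe sets on 1 untreated BCB array, divided by its mean on the other 3 and shown as log2, with 1 column of points per array and a line at the median. The points of array 1 lie mostly below 0 (median ratio 0.705), and the medians of arrays 2 to 4 lie above 0.

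The 13 higher calls did not share 1 pattern. Of these, 5 were called lower in untreated BCB than in untreated BBB (0.129% of all probe sets), 4 were called higher in BCB with amanitin (0.0466% of all; 0.02% of all were called lower), and 4 were called in neither strain comparison. Amanitin lowered 8 (23.3% of all probe sets) and raised 2 (25.3%) in BBB, and lowered 5 (22.1%) and raised 5 (28.6%) in BCB. With the poly-A controls as the scale, limma called each of the 13 lower in BBB, and in BCB 11 were called lower and 1, AU040320, higher. The interactions ran from 0.72 to 1.71 with a median of 1.05.

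AU040320 has a clone name, outside the rule for naming, and was chosen after its values were seen, since its interaction was the largest of the 13 with the offset of 16. With an offset of 1 it was 1.79, and 6 others were larger, up to 3.94 for 1419858_at. Probe set 1426699_at read 187.4, 179.2, 169 and 174 in untreated BBB and 129.7, 128.5, 101.8 and 106.5 in untreated BCB. With amanitin it read 289.4, 401.3, 648 and 401.2 in BBB and 1042.7, 831, 926.9 and 1011.2 in BCB. Untreated BCB was lowest and treated BCB highest, with no overlap between any groups. The interaction was 1.71 ± 0.23 (limma adjusted p = 0.00122). The gene's other probe set, 1452150_at, read 1195 to 1374 and 1226 to 1384 untreated, rose to 2482 to 2907 and 2612 to 3061 with amanitin, and gave an interaction of 0.08 ± 0.10 (limma adjusted p = 0.917).

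The called probe sets of Dst, Rbsn, Parp8 and Slc5a3 fell with amanitin in both kinds, and by less in BCB. Dst encodes dystonin, which links the cytoskeleton to junctions. Its probe set 1450119_at read 1219.5, 1091.4, 1152.8 and 1038.1 in untreated BBB, 773.8, 676.2, 608.4 and 614.3 in untreated BCB, 119.2, 142.9, 98.1 and 97.5 in treated BBB and 139.8, 131.3, 136.1 and 171.1 in treated BCB. The untreated groups did not overlap, the treated groups did, and the interaction was 1.05 ± 0.17 (limma adjusted p = 0.00880). A further probe set, 1421117_at, with means of 1246 and 1074 untreated, gave 0.33 (limma adjusted p = 0.727). Parp8, an ADP-ribosyltransferase, read 221.5 to 301.5 and 129.3 to 159.5 untreated and 32.4 to 42.5 and 38.2 to 66.3 treated, with an interaction of 1.04 ± 0.20 (limma adjusted p = 0.0414) that was called in 4 of 16 leave-one-out fits.

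Rbsn encodes rabenosyn-5, which acts with Rab proteins on early endosomes. It read 503.5 to 654.1 in untreated BBB, 350 to 443.1 in untreated BCB, 107.4 to 165.7 in treated BBB and 173.5 to 288.4 in treated BCB. The arrays were higher in BBB untreated and higher in BCB with the drug, with no overlap in either condition. Neither difference between the kinds was called: −0.58 untreated (limma adjusted p = 0.115) and 0.64 with amanitin (limma adjusted p = 0.101). The interaction was 1.23 ± 0.20 (limma adjusted p = 0.0127). Slc5a3, the sodium-coupled transporter of myo-inositol, differed between the kinds where it was nearly gone: 2.7 to 7.9 in treated BBB and 20.5 to 31.3 in treated BCB, after 147.5 to 241.1 and 118.6 to 180.4 untreated. Its interaction of 1.28 ± 0.24 (limma adjusted p = 0.0406) was called in 3 of 16 leave-one-out fits. These values are of 1440227_at. With an offset of 1 its interaction was 2.56 (limma adjusted p = 0.00495). With an offset of 64 it was 0.62 and was not called (limma adjusted p = 0.205). The Slc5a3 probe set with the highest mean, 1435484_at, had means of 995 and 955 untreated, changed by −4.56 in BBB and −4.70 in BCB, and gave an interaction of −0.14 (limma adjusted p = 0.947). The remaining Slc5a3 probe set, 1422170_at, gave 0.72 (limma adjusted p = 0.375).

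The signalling enzyme Dgkq, a diacylglycerol kinase, read 10.4 to 35.8 in untreated BBB and at most 10 in the other groups, and its interaction was 1.17 ± 0.23 (limma adjusted p = 0.0465; 2 of 16 leave-one-out fits). Zfp770, a zinc finger protein, read 167.2 to 247.9 in untreated BBB, 107.1 to 134.6 in untreated BCB, 83.8 to 115.4 in treated BBB and 109.9 to 177.8 in treated BCB. On this probe set, 1437305_at, it fell with amanitin in BBB, by 0.98, and its change in BCB was 0.20 (limma adjusted p = 0.277). The Zfp770 probe set with the highest mean, 1434682_at, changed by −0.13 in BBB (limma adjusted p = 0.554). It gave an interaction of 0.25 (limma adjusted p = 0.866). Pdzd2, a PDZ-domain protein, was called on 1443618_at, which rose in both kinds on the deposited scale and by more in BCB: from 128.4 to 141.8 in untreated BBB to between 203.1 and 242.2, and from 104.6 to 111.4 in untreated BCB to between 301.4 and 324. That call was made in 9 of 16 leave-one-out fits. The Pdzd2 probe set with the highest mean, 1435553_at, rose by 0.98 in BBB and 0.85 in BCB and gave −0.13 (limma adjusted p = 0.890). Scaled to the poly-A controls, the changes on 1443618_at were −1.05 in BBB and −0.34 in BCB. The other higher calls were 0610040J01Rik (0.73), 4930524C18Rik (0.72), and the probe sets 1426061_x_at (1.44), 1419858_at (0.84) and 1438823_at (0.84). Of these, 4930524C18Rik and 1438823_at read at most 6 and 7.2 in 3 of the groups and 9.7 to 14.2 and 11.6 to 18.6 in treated BCB.

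Several probe sets stood for the same gene in 25 of the 41 called genes, and 23 of these 25 were called on 1 probe set alone. Of their 88 probe sets, 28 were called and 60 were not, and 22 of the 60 had the opposite sign. H2-D1 had 9 probe sets on the array. The called one, 1425614_x_at, read 3.3 to 5.5 in untreated BBB and 13.3 to 34.2 in untreated BCB, and 1450170_x_at read 7.6 to 20.1 and 61.3 to 144.8. The H2-D1 probe set 1426324_at ran the other way, at 96.1 to 120.2 and 54.2 to 70, with an interaction of 0.77 ± 0.23 (limma adjusted p = 0.326). MHC class I genes are near-identical copies of one another and differ between inbred strains, so which transcript each of these probe sets read is uncertain. Among the 12 probe sets of Rbm39 the called one, 1442744_at, had means of 4.67 and 26.2 untreated, and the one with the highest mean, 1426671_a_at, gave −0.15 ± 0.12. The called Mtrex probe set, 1447517_at, had means of 2.15 and 38.7 untreated, whereas 1426718_at, with means of 738 and 639, gave −0.24 (limma adjusted p = 0.889). For Six4 the probe set with the highest mean, 1427701_a_at, gave 0.33 (limma adjusted p = 0.782).

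The interactions of Prkch and Etv3 had the same direction on a further probe set. Prkch 1434248_at read 16.8 to 23.3 in untreated BBB, 94.5 to 250.2 in untreated BCB, 5.1 to 22.9 in treated BBB and 14.8 to 58.6 in treated BCB, with an interaction of −1.81 ± 0.43 (limma adjusted p = 0.147). For Etv3, 1418635_at gave −1.03 ± 0.28 (limma adjusted p = 0.264) beside the called −1.77 ± 0.32 on 1418637_at. For Rbsn the 2 other probe sets gave −0.02 and −0.55, against the called 1.23.

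**Figure D5:**
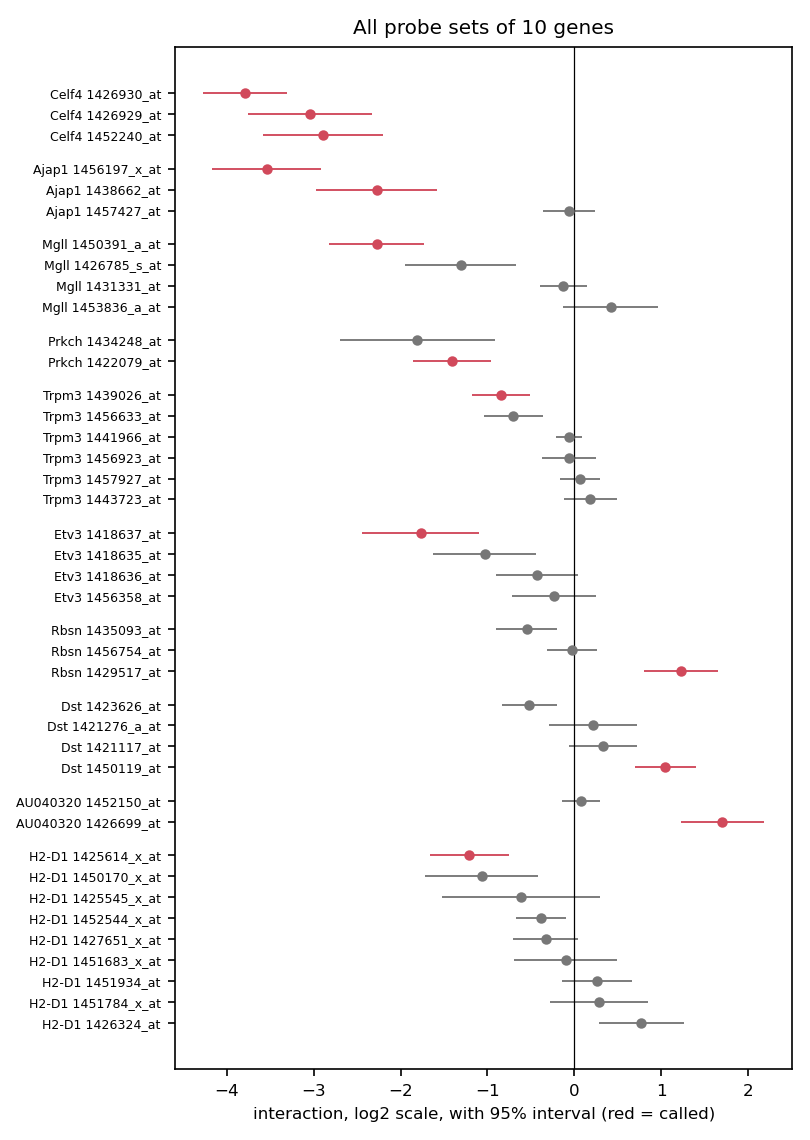
Interaction on the log2 scale with its 95% interval for every probe set of 10 called genes, red where limma called it. All 3 probe sets of Celf4 lie below −2, whereas those of Rbsn, Dst and H2-D1 lie on both sides of 0.

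Read from 1 probe set per gene, the one with the highest mean, 26 of 18193 genes were called (0.143%): 22 lower and 4 higher. On that reading, none of the 24 gene lists examined held a called gene in limma, and their medians lay close to that of all genes, 0.03. Genes called only on another probe set are not counted there. Mgll, of the cholesterol, fatty acid and lipid list, was such a gene, called on 1450391_a_at. The 23 measured genes of two-cell genome activation had a median interaction of 0.06, after a median amanitin effect of −4.14 in BBB and −3.92 in BCB, and 1 of 23 had an unadjusted p under 0.05, against 7.77% of all genes. The 59 oocyte and maternal-effect genes had a median interaction of −0.07 after amanitin effects of 0.77 and 0.75, with 2 of 59 at an unadjusted p under 0.05. The 109 nucleolar genes were at 0.01 (9 at an unadjusted p under 0.05), the 46 cytosolic ribosomal protein genes at −0.13 (5) and the 77 oxidative phosphorylation genes at 0.04 (10). The 49 cholesterol, fatty acid and lipid genes were at 0.01 (12). The 33 antigen presentation genes were at 0.03 (7), the 50 imprinted genes at 0.04 (3) and the 28 cumulus and granulosa markers at 0.15 (4). The smallest adjusted p in any list belonged to the imprinted gene Trappc9, at −0.70 (limma adjusted p = 0.0646).

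Among the strongest amanitin responders, the interactions and their intervals were as follows. Timd2, a receptor of the TIM family, read 2309.9 to 3179.4 in untreated BBB and 2638.9 to 3229.6 in untreated BCB, and 3.8 to 14.2 and 9.7 to 25.5 with amanitin. Its interaction was 0.34, with a 95% interval from −0.13 to 0.81. Zfp352, a zinc finger gene that marks the two-cell stage, fell from 3971.2 to 5246.8 in BBB and 4012.4 to 4467.4 in BCB to 175.1 to 221.2 and 134.1 to 298.2; its interaction was 0.28 (−0.19 to 0.75). Eif1a, a translation initiation factor of the first wave of transcription, had an interaction of 0.05 (−0.56 to 0.67).

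The heat shock genes Hspa1a and Hspa1b were less precise, at −0.05 (−1.27 to 1.17) and 0.75 (−0.15 to 1.66). For Hspa1a the treated arrays alone ran from 0.9 to 94 in BBB and from 17.2 to 103.9 in BCB, so that a change of 1 log2 unit was within the interval. Among transcripts that rose, Dph6, an enzyme of diphthamide synthesis, went from 57.5 to 136.5 in BBB and 84.8 to 118.4 in BCB to 2258.4 to 2663.1 and 1771.4 to 2636.8. Its interaction was −0.29 (−0.84 to 0.25). The egg coat gene Zp2 had an interaction of −0.30 (−0.54 to −0.06; limma adjusted p = 0.513), with 4057.1 to 4389.5 in treated BBB and 3251.7 to 3661.5 in treated BCB, which did not overlap. Treated groups without overlap were found for 3.59% of all probe sets. For Zp2 the difference between the kinds with amanitin, −0.28, was not called (limma adjusted p = 0.220). The oocyte growth factor Gdf9 was at −0.14 (−0.35 to 0.07), and the maintenance DNA methyltransferase Dnmt1 at 0.20 (−0.16 to 0.55).

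No more than 3 genes called lower lay on any chromosome, with 3 each on chromosomes 4, 5, 6, 11, 12 and 13, and none on 7, 9, 10 or 16. The chromosomes with 3 each held from 3.45% (chromosome 12) to 8.01% (chromosome 11) of the genes tested. Those with none held from 3.29% (chromosome 16) to 7.84% (chromosome 7). Whether the counts depart from these shares was not tested. Of the 82 genes measured next to a called gene, limma called 0 in the interaction (0.143% of all genes) and 1 in untreated BCB against BBB (0.5% of all genes), too few to set the neighbours apart from all genes. That one was Ccdc126, beside Fam221a on chromosome 6. Fam221a read 92.5, 114, 107.6 and 89.7 in untreated BBB, 522.7, 706.2, 622.3 and 745.2 in untreated BCB, 61.3, 55.4, 53 and 57.3 in treated BBB and 61.7, 76.5, 70.3 and 78.3 in treated BCB. Ccdc126 read 79.2, 142.4, 46.7 and 56 and 167.2, 281.7, 311.7 and 216.2 untreated, and at most 11.7 and 3.4 treated. Both were apart between the untreated kinds; the interactions were −2.23 ± 0.17 (limma adjusted p = 6.88e-07) for Fam221a and −1.72 (limma adjusted p = 0.0676) for Ccdc126. Just inside the threshold lay Zfp618 and Dgkq. Just outside it lay the higher 1431342_at (limma adjusted p = 0.0509), 2610005L07Rik at 1.33 (limma adjusted p = 0.0521) and Acss2, an acetyl-CoA synthetase, at −1.37 ± 0.27 (limma adjusted p = 0.0521), with means of 35.8 in untreated BBB, 131 in untreated BCB, 9.80 in treated BBB and 12.4 in treated BCB.

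The size of the result rested on its arrays and scaling. Leaving out 1 array at a time gave between 32 and 65 calls; the count fell by more than 1.5 times without BBB array 3 (32), BCB array 3 (33), BCB array 2 (36) or BBB array 4 (37). In all 16 of these fits 31 of the 56 probe sets were called, 28 lower and 3 higher (AU040320, Dst and Rbsn). Normalization, pseudocount, filter, block, trend, weights and control scaling were also varied. In the 16 fits and in all of these settings that tested them, 18 of the 56 were called, 17 lower and 1 higher (AU040320). Dst and Rbsn were not called when scaled to the poly-A controls or to the hybridization controls. Untreated BBB arrays 1 and 2 correlated at 0.990 and arrays 3 and 4 at 0.990, against 0.987 to 0.988 across these pairs; leaving out arrays 3 and 4 together, chosen after seeing the data, gave 25 calls. The level of the hybridization controls had its own interaction of 0.24, and scaling the arrays to them shifted the median over all probe sets to −0.21 and gave 82 lower calls and 1 higher. The interaction of no called probe set changed sign under any of these settings. In 12 of the 43 lower calls and 0 of the 13 higher calls the interaction exceeded 2-fold in limma's test against that minimum (adjusted p under 0.05). These 12 were the 3 probe sets of Celf4, Pdgfrl, Adcy2, Ajap1, Sdhaf3, Fam124a, Fam221a, 1422071_at, 1436889_at and 1421281_at.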

How the data were processed

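The deposited values are array intensities on a linear scale with 1 decimal, which the authors scaled so that the 2% trimmed mean is equal on all arrays, as the values show. Per the labels, a Picopure kit yielded the RNA and an ENZO kit the biotin label. The array software is not given in the sources used here, and no detection calls were used. All 16 arrays entered 1 limma model (3.58.1, R 4.3.3) with 4 group means on log2(intensity + 16), without a filter on low values, with an intensity trend and Benjamini-Hochberg adjustment over 45037 probe sets. Of these, 34945 had 1 gene symbol, 932 several and 9160 none. A gene was read from its probe set with the highest mean. The script was tested on simulated data. The rule named genes called with a group mean of at least 100, up to 12 per direction, and fixed markers; other called genes were named after their values were seen, so that all calls are accounted for. The members and lists were chosen with earlier results of these data known. Same-numbered samples did not deviate together (24 pairs, correlations −0.07 to 0.08), so numbers were not treated as pairs. Normalization, pseudocount, filter, block, trend, weights, control scaling, probe set choice and left-out arrays were varied.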

Additional observations from a re-analysis of the deposited data

Results flagged for a closer look

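The difference between the kinds of embryo in their amanitin effect was tested directly, and 43 probe sets were lower and 13 higher in limma (adjusted p under 0.05).

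In 20 of 296 sets of 4 arrays, each of 1 probe set in 1 group, 1 array lay far from the other 3 by Dixon's criterion at 95%, and chance flags about 1 group in 20. Untreated BCB array 1 was low for 1422071_at (170.2, others 320.4 to 357.3), Fam124a (152.3, others 232.3 to 247.8), Etv3 (55.4, others 112.3 to 120.9) and both responsive Mgll probe sets, 1450391_a_at (166.5, others 315.2 to 330.7) and 1426785_s_at (198.5, others 361.8 to 406.9). Other arrays of untreated groups that stood apart were BCB array 4 for 0610040J01Rik (592.8) and Timd2 (2638.9), BBB array 4 for 1436889_at (3.8) and BBB array 2 for 1444321_at (9).

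In treated BCB, array 2 stood apart for Msantd1 (10.7), Nfkbil1 (14.8) and Pramel7 (24.5), array 3 for Tmed11 (26.4), and array 4 for Frrs1 (45.4). In treated BBB, array 3 was low for Ajap1 on 1438662_at (4) and for Ipp (103), array 2 was low for Mos (24.2), array 1 was high for Six4 (3.4), and array 4 was high for 1438823_at (7.2) and for Rbm39 on 1442744_at (0.5, others 0.4). Outside these 296, among whole-array measures, treated BCB array 1 had a high 75th percentile of all its values (91.2, others 88.2 to 88.7).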

How the results depend on the processing

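The interaction of no called probe set changed sign under any alternative. Out of the 56 calls (43 lower, 13 higher), settings gave 47 with quantile normalization (39 and 8), 63 with arrays centred on their median (56 and 7), 33 with a pseudocount of 1 (24 and 9), 74 with 64 (52 and 22), 82 and 81 with filters at the 40th and 60th percentile (53 and 29; 50 and 31), 83 scaled to hybridization controls (82 and 1), 35 scaled to poly-A controls (29 and 6) and 12 with a 2-fold minimum (12 and 0). The fit with the replicate number as a block gave 43 (36 and 7). Of the 56 original calls, 28 were kept when scaled to poly-A controls, 30 with a pseudocount of 1, 40 with the block and 52 with a pseudocount of 64. Leaving out BBB arrays 3 and 4, an alternative chosen after seeing the data, gave 25 (22 and 3). Leaving out 1 array gave 32 to 65 calls, 28 to 49 lower and 4 to 21 higher. By gene, the 26 calls became 12 (pseudocount 1), 41 (60th percentile), 13 (without BBB arrays 3 and 4), 6 (2-fold minimum) and 15 to 31 (1 array left out); averaging the probe sets of each gene gave 34. The filters test fewer probe sets; the cause of the other shifts was not tested. The number of arrays limits the precision: the median standard error was 0.22.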

Other observations

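The median over the 13 higher calls of the group means was 177 in untreated BBB and 117 in untreated BCB, against 11.4 and 124 over the 43 lower calls. With amanitin the medians of the 13 were 36.9 in BBB and 47.5 in BCB.

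The amanitin effects of the kinds, which share no arrays, correlated at 0.966 (Pearson's r across 45037 probe sets, which are not independent replicates). Amanitin was called in BBB alone for 3253 probe sets and in BCB alone for 4211; whether an effect differs between the kinds is shown by the interaction and not by these counts.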
